A study of Homo sapiens with 2 samples.

Results

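Cells make cholesterol from acetyl-CoA through the mevalonate pathway, and fatty acids from the same precursor through malonyl-CoA. Transcription of the enzymes of both pathways is controlled by the sterol regulatory element-binding proteins (SREBPs). These are membrane proteins of the endoplasmic reticulum that SCAP carries to the Golgi apparatus for cleavage when sterols are low and that INSIG proteins hold back when sterols are high. Prostate cancer cells are known for active lipid synthesis.

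A set of 33 genes of these pathways, of 19775 genes named on the array, was followed step by step in PC-3 cells. PC-3 is an established line of androgen-independent human prostate carcinoma cells. The set was listed by gene symbol and holds 7 enzymes of the mevalonate and isoprenoid steps, 11 enzymes from squalene to cholesterol, 5 SREBP regulators, the sterol transfer gene STARD4 and 9 enzymes of fatty acid synthesis and desaturation. Cells exposed to Riccardin D (RD), a macrocyclic bisbibenzyl from a liverwort, for 24 h were compared with control cells by a single whole-transcriptome Affymetrix array per condition. The sample labels give no dose, and the supplement describing these arrays names 10 µmol/L. The control is described as given the DMSO vehicle in the treatment protocol and as not treated in its source name.

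The values were MAS5 signals, that is, linear intensities corrected for background and for mismatch probes. Of the 33 genes, 30 had at least 1 probe set (a group of short oligonucleotides read together) named for that gene alone. The other members were not analysed here. CYP51A1, which removes a methyl group from lanosterol, was named only on 2 probe sets that also carry another gene, and FADS1, a fatty acid desaturase, only on 3 such probe sets. FDFT1, which makes squalene, was not named on any probe set in the annotation used here. Genes with more than 1 probe set were represented by the brightest. To be counted as lower or higher in RD-treated cells, a gene needed a difference of 2-fold or more and a signal of 66.9 or more on at least 1 array. This minimum, called the floor here, was the median of all signals.

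The arrays had been scaled alike, with mean signals without the extreme 2% of probe sets of 495.9 for RD and 495.8 for control. With 1 array per condition there was no spread between cultures and no test of the treatment, and precision is limited by the number of arrays. Disagreement among the probe sets of single genes was measured on log2 differences. Because these probe sets share the same 2 arrays, it does not measure the spread between cultures. The SD was 0.76 over 18518 probe sets at or above the floor. Over the 46 such probe sets of members with more than 1, the SD was 0.39. These 2 values are not matched for brightness. Among probe sets of 377.4 or more on at least 1 array, the SD was 0.34 over all genes (8576 probe sets). It was 0.27 over the members (35 probe sets). Among markers of epithelial cells, KRT18 and KRT8 reached the floor while KRT19, CDH1 and EPCAM did not on either array. Of 5 prostate luminal markers measured, 2 reached the floor, with summed signals over the 5 of 315.5 for RD and 328 for control. Markers of leukocytes (2 genes) and adipocytes (3 genes) were under the floor on both arrays. Among markers of fibroblasts, 2 of 3 reached the floor, with summed signals of 449.4 for RD and 526.8 for control. For hepatocytes, 2 of 3 reached it (174.6 for RD and 231.2 for control), and for endothelial cells 1 of 2 did (76.4 for RD and 130.1 for control). Their part in the results was not tested.

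Most sterol and fatty acid enzymes measured were lower in RD-treated cells, 17 of 24. Of all 30 members measured, 27 had a lower signal and 3 a higher signal on the RD array. By the rule of size 19 were lower and none was higher. Of 12818 genes at or above the floor, 13.3% were lower and 12.1% were higher by the same rule. The median log2 difference (RD minus control) was -1.11 over the members and -0.0022 over all these genes. The members spanned -2.75 (TM7SF2) to 0.70 (ME1), and the 5th and 95th percentiles of all these genes were -1.71 and 1.61. Dim signals were few among the members, since 29 of the 30 reached 377.4 on at least 1 array, which is the 75th percentile over both arrays. Of these 29, 18 were lower and none higher, against 10.9% lower and 9.91% higher of 8094 genes that bright. FADS2, a desaturase of polyunsaturated fatty acids, was the one dim member.

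**Figure D1:**
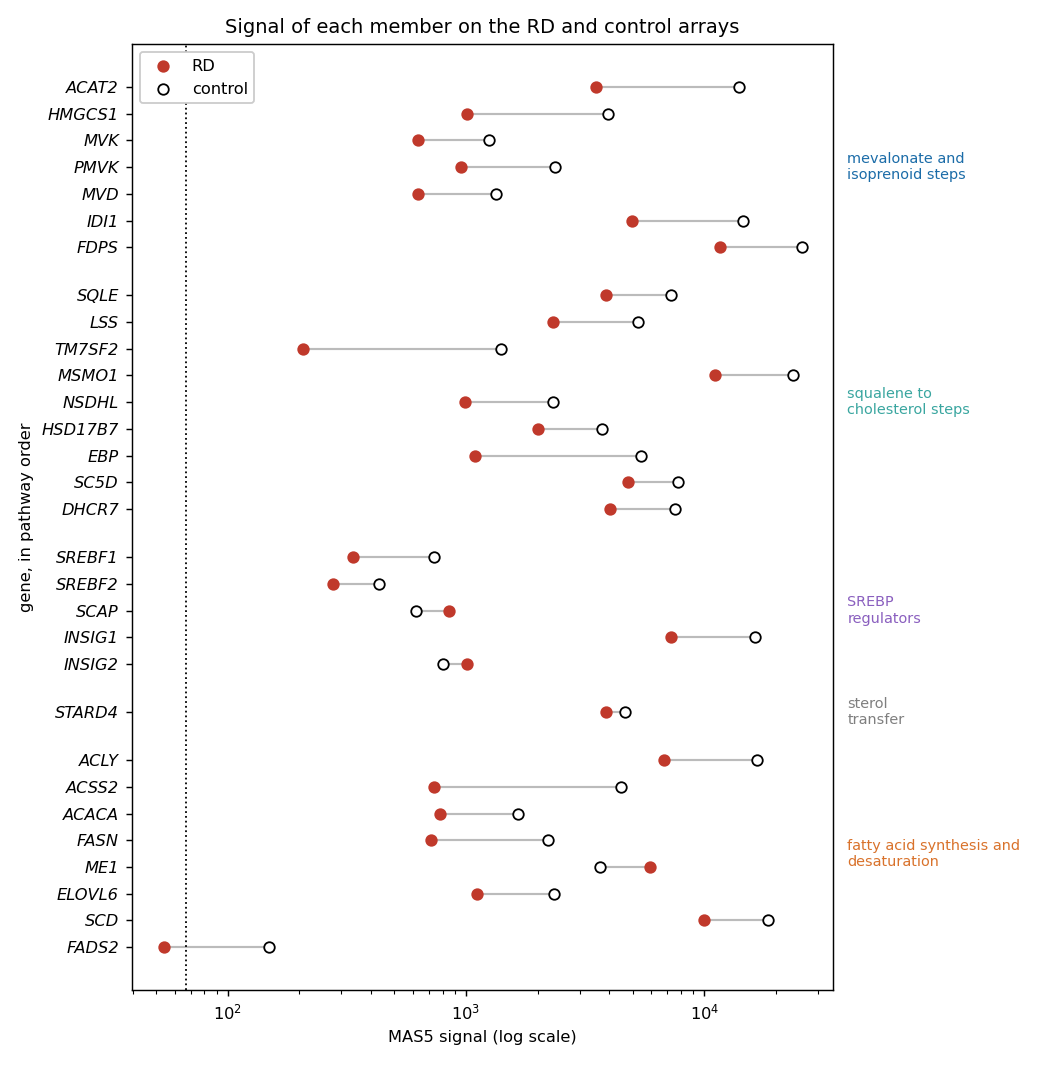
MAS5 signal (horizontal, log scale) of the 30 measured members on the RD array (filled red circles) and the control array (open circles), in pathway order by arm, with 1 array per condition and the probe set that stood for each gene. The dotted line is the floor of 66.9. RD lies left of control in 27 genes, and right of it in SCAP, INSIG2 and ME1.

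The regulators did not move together. SREBF1, which encodes SREBP1, had a signal of 336.4 in RD-treated cells and 734 in control cells, and was 2.18-fold lower. INSIG1, which holds SCAP in the endoplasmic reticulum and is itself known to be switched on by SREBPs, had 7254.1 in RD-treated cells against 16367.1 in control cells (2.26-fold lower). Both further probe sets of INSIG1 were lower too, by 2.82-fold and 2.35-fold. INSIG2, its paralogue with the same retention role, stood at 1010.6 in RD-treated cells and 803.1 in control cells, a ratio of 1.26. SCAP, the escort protein of the SREBPs, read 847.4 with RD and 620 in control, a ratio of 1.37. SREBF2, which encodes SREBP2 and is best known for driving the sterol enzymes, had 275.8 in RD-treated cells and 431.1 in control cells, or 0.640 of control. Its other probe sets stood at 0.731 and 0.549. Thus 2 of 5 regulators were counted as lower, and SREBF2, SCAP and INSIG2 did not reach 2-fold. The median log2 difference of the 5 was -0.64, with a range of -1.17 to 0.45. STARD4, which moves sterol between membranes, was at 0.828 of control (3864.8 for RD and 4665.1 for control).

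The start regions of the members in all arms were searched for motifs tied to SREBP control. RefSeq windows of 300 bases (GRCh38.p14, from 250 bases before the transcript start to 50 after it) were searched on both strands for the sterol regulatory element TCACNCCAC, the E-box CACGTG, which SREBPs also bind, and the CCAAT box, the site of NF-Y, a factor known to act beside SREBPs. Of the 30 measured genes, 27 had at least 1 such window. The element TCACNCCAC occurred in 1 of the 27, SREBF2, and in 1.39% of 27305 genes. An E-box occurred in 4 of the 27, namely INSIG1, SCAP, LSS and SC5D, and in 8.77% of all genes. A CCAAT box occurred in 21 of the 27 and in 39.7% of all genes. Of the 17 genes counted as lower with a window, 14 held a CCAAT box, and 7 of the 10 other members did. Some genes have several windows, and a gene counts when any of them holds the motif. The shares of all genes cover every gene with a window, whatever its signal. They were not matched to the members for brightness or for the number of windows. No test was made of these shares, and a match is a description of the letters only. Only exact matches inside the windows were counted, so variant or more distant sites would be missed. The windows of SREBF2 and of both INSIG paralogues, of which INSIG1 alone was counted as lower, are given 5′ to 3′ with all matches in capitals. In SREBF2 these are the sterol regulatory element and, closer to the start, a CCAAT box on the reverse strand. In INSIG1 they are a reverse CCAAT box and then an E-box, and in INSIG2 there was none.
SREBF2 (chr22:41832855-41833154, plus strand): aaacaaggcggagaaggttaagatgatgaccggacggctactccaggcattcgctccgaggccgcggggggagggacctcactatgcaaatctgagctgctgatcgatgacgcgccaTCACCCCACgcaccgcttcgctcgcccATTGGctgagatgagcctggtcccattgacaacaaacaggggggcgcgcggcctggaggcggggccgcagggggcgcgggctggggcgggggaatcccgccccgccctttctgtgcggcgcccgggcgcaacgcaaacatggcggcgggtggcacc
INSIG1 (chr7:155297628-155297927, plus strand): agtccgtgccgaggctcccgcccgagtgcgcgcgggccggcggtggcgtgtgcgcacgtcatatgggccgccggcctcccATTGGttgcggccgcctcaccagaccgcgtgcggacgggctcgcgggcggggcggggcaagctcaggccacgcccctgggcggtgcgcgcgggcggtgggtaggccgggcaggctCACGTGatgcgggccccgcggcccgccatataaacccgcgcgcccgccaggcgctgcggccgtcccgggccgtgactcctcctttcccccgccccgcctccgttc
INSIG2 (chr2:118088300-118088599, plus strand): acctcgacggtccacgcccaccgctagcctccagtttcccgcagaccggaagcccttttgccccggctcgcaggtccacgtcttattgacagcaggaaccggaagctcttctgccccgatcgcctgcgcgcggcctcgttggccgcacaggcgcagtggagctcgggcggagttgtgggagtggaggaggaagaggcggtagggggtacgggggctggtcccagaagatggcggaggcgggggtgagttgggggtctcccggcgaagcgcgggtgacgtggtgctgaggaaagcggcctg

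From acetyl-CoA to farnesyl diphosphate the RD signal lay below the control signal at each measured enzyme, and 6 of 7 were counted as lower, with a median log2 difference of -1.31. ACAT2, the cytosolic thiolase that joins acetyl-CoA units, had a signal of 3501.5 in RD-treated cells against 13911.5 in control cells (3.97-fold lower). HMGCS1, which adds the next acetyl unit, was almost as far apart, with 1012.3 for RD and 3931.1 for control (3.88-fold lower). Its other probe set was 2.70-fold lower. Among the probe sets that stood for their genes, these opening steps had the largest differences of this arm. A dimmer probe set of MVK, given below, had a larger difference (4.29-fold lower). The phosphorylation steps follow in the set, which does not hold every step of this route. MVK, which phosphorylates mevalonate, had 626.6 with RD and 1247.7 in control, which is 1.99-fold and just short of the threshold. Its other probe sets above the floor were 3.20-fold and 4.29-fold lower. PMVK, which adds the second phosphate, had 952.3 in RD-treated cells and 2359.1 in control cells (2.48-fold lower). MVD, whose product is the isoprenoid building block, read 632.2 with RD and 1339 in control (2.12-fold lower). IDI1, which isomerises that building block, had 4961.6 in RD-treated cells against 14583.4 in control cells (2.94-fold lower). IDI1 was the only member whose probe sets above the floor lay on both sides of 0. A second bright probe set was 2.45-fold lower, while 2 dim ones hardly differed, with 258.6 and 195.2 for RD and 251.7 and 197.2 for control. Both bright probe sets, and the dim one with 258.6 for RD, carry a name that marks sequence shared with other transcripts. FDPS, which builds farnesyl diphosphate, had 11629.5 in RD-treated cells and 25562.5 in control cells (2.20-fold lower).

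All 9 measured enzymes from squalene to cholesterol also had lower signals, although 4 of them stayed short of 2-fold. SQLE, which epoxidises squalene and is a control point of the pathway, stood at 0.533 of control (3854.3 for RD and 7229.1 for control), and of its other probe sets 1 was 2.13-fold lower and 2 did not reach 2-fold. LSS, which folds the product into lanosterol, had 2313.4 in RD-treated cells against 5267.7 in control cells (2.28-fold lower). A further probe set of LSS was 2.47-fold lower, and the dimmest, with 156.6 for RD and 228.1 for control, did not reach 2-fold. TM7SF2, a sterol reductase, had the largest difference of all members, with 207.5 for RD and 1397 for control (6.73-fold lower). This gene had a single probe set. The demethylation steps came next in the pathway. MSMO1, the methyl sterol oxidase, had 11048.6 in RD-treated cells and 23622.1 in control cells (2.14-fold lower). NSDHL, which completes the removal of the methyl group, read 988.6 with RD and 2317.8 in control (2.34-fold lower), and its other probe set was 2.48-fold lower. HSD17B7, the ketone reductase of this step, was at 0.539 of control (2006.8 for RD and 3726.6 for control). The closing steps differed widely among themselves. EBP, a sterol isomerase, was 4.95-fold lower, with 1093.5 in RD-treated cells against 5412.8 in control cells. All 4 of its probe sets were lower, by 4.74-fold and 3.18-fold for the next ones and by at least 1.31-fold for the dimmest, whose RD signal of 29 lay under the floor. SC5D, the desaturase after it, had the smallest difference of the sterol enzymes, at 0.622 of control (4802.8 for RD and 7725 for control). DHCR7, which makes cholesterol in the last reaction of one branch, had 4030.5 with RD and 7519.9 in control, or 0.536 of control, and its other probe set was 2.34-fold lower. Over the 9 genes the median log2 difference was -1.10, against -1.31 for the mevalonate steps, and the difference was not tested.

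Counts of CCAAT boxes did not follow the calls gene by gene. NSDHL and EBP, which were lower, held 5 and 3 in their windows, and the lower genes PMVK, SREBF1 and ELOVL6 held none. MVK held 5 and was not counted as lower, but it fell just short of the threshold at 1.99-fold. Its other probe sets above the floor were 3.20-fold and 4.29-fold lower. The windows of NSDHL and EBP are shown as examples with several boxes, and neither holds an exact match to TCACNCCAC. In NSDHL 2 of the 5 matches overlap on opposite strands. They are given in the same way, with CCAAT or its reverse complement in capitals.
NSDHL (chrX:152830813-152831112, plus strand): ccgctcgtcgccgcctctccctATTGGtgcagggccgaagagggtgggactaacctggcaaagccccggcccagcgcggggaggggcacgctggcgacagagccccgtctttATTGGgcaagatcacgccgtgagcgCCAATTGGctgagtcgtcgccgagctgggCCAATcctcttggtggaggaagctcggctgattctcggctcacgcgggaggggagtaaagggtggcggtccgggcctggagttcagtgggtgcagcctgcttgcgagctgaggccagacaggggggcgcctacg
EBP (chrX:48521558-48521857, plus strand): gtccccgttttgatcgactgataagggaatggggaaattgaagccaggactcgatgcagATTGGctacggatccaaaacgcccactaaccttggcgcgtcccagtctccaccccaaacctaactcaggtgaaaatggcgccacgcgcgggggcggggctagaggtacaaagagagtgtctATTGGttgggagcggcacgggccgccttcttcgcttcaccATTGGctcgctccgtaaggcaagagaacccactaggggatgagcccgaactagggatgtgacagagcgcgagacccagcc

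In fatty acid synthesis and desaturation, 6 of 8 genes measured were lower, SCD did not reach 2-fold and ME1 had a higher signal. ACLY, which splits citrate into acetyl-CoA in the cytosol, had a signal of 6800.9 in RD-treated cells and 16660.8 in control cells (2.45-fold lower). Its other probe sets were 3.61-fold and 3.12-fold lower. ACSS2, which makes acetyl-CoA from acetate, had the largest difference of the arm, with 733.6 for RD against 4453.7 for control (6.07-fold lower). It had a single probe set. ACACA, the carboxylase that commits acetyl-CoA to fatty acids, had 780.7 in RD-treated cells and 1649 in control cells (2.11-fold lower), and its dimmer probe set was at 0.527 of control. FASN, the synthase of palmitate, read 714 with RD and 2212.8 in control (3.10-fold lower). ELOVL6, which lengthens palmitate, had 1107.5 with RD and 2351.5 in control (2.12-fold lower), and its other probe sets were 2.53-fold and 4.02-fold lower. The desaturases come last. SCD, which makes oleate from stearate, had 9939.1 in RD-treated cells against 18543.2 in control cells by its brightest probe set, or 0.536 of control. The other 3 probe sets of SCD were lower by 2.68-fold, 2.22-fold and 2.35-fold. FADS2 read 53.9 with RD, which is under the floor, and 148.6 in control, so that it was lower by at least 2.22-fold, the control signal over the floor. ME1, the cytosolic malic enzyme that supplies NADPH for fatty acid synthesis, had 5935.5 in RD-treated cells and 3641.6 in control cells, a ratio of 1.63, and its second bright probe set gave 1.52. The third, under the floor on both arrays, read 6.7 for RD and 14.7 for control.

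The sterol and fatty acid arms had medians close to each other. The 16 sterol enzymes had a median log2 difference of -1.16 and 11 were lower, and the 8 fatty acid genes had a median of -1.19 and 6 were lower. The difference between the medians was -0.03 (fatty acid minus sterol). Each arm held a member past 6-fold, TM7SF2 and ACSS2. No test of the difference between arms was made. The regulators had a smaller median than either arm, and 2 of the 3 members with a higher signal in RD-treated cells were regulators.

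**Figure D2:**
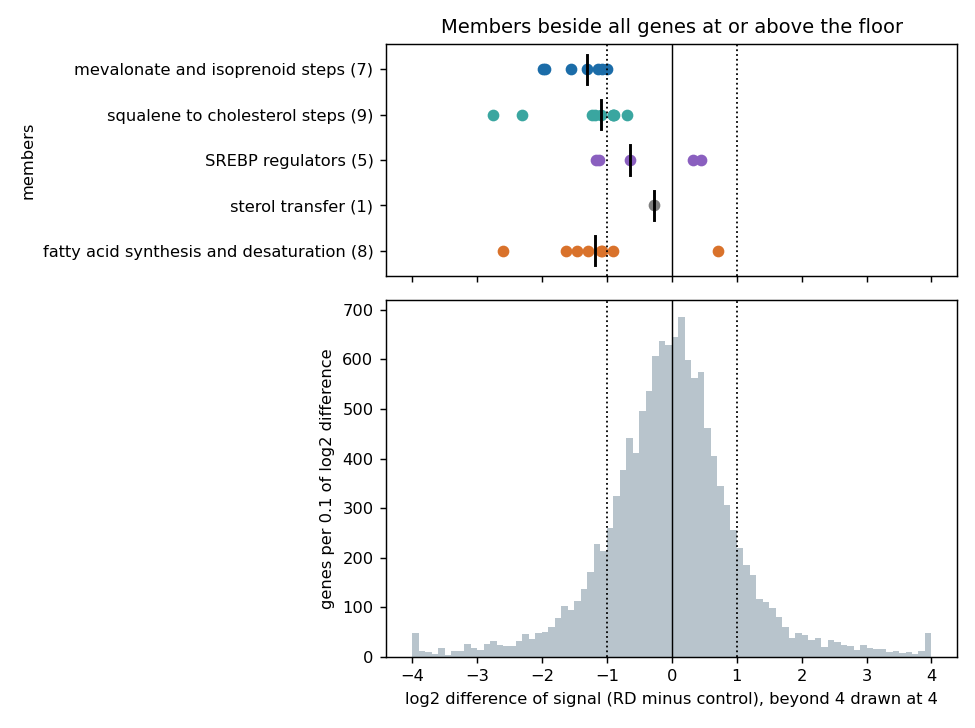
Difference in log2 signal (RD minus control, horizontal) of the measured members by arm with the number of genes in brackets (upper panel, bars are medians), above the distribution of the 12818 genes at or above the floor (lower panel, genes per 0.1, with larger differences drawn in the end bins). Dotted lines mark 2-fold. The medians of the enzyme arms, -1.31, -1.10 and -1.19, lie left of the 2-fold line and that of the regulators, -0.64, lies right of it.

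Agreement between probe sets of a gene was examined next. Of 65 single-gene probe sets of members, 60 reached the floor, 39 of them were lower and none was higher by the rule of size, against 13.2% lower and 13.4% higher of 24934 single-gene probe sets at or above the floor. Their median log2 difference was -1.18. Of 16 members with at least 2 probe sets at or above the floor, 14 had every probe set below 0, ME1 had every one above 0, and IDI1 was mixed. For 14 members a single probe set was at or above the floor, so no second reading was available. Of the 30 standing probe sets, 17 have a name that marks shared sequence, among them the only one of HSD17B7. With probe sets free of that mark, 19 members could be measured and 10 of them were lower.

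**Figure D3:**
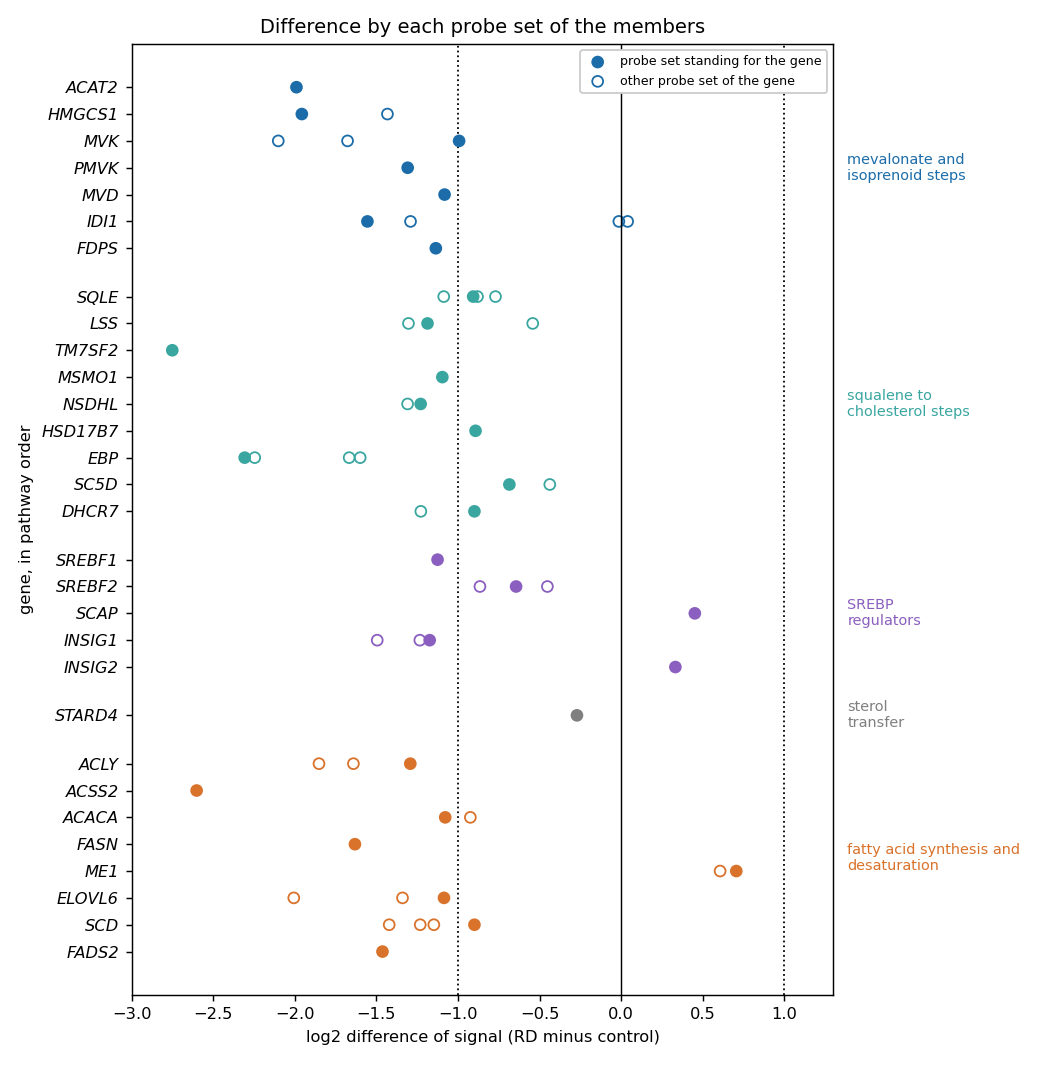
Difference in log2 signal (RD minus control, horizontal) of each probe set at or above the floor for the 30 measured members, in pathway order. Filled circles are the probe sets that stood for their gene, open circles are other probe sets, dotted lines mark 2-fold, and 1 array per condition means that no error bar can be drawn. IDI1 has probe sets at -1.56 and -1.29 and also at -0.01 and 0.04.

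Other genes of lipid metabolism were set out in lists by role. Of 94 such genes 77 were measured at or above the floor, 13 were lower and 6 were higher, beside 13.3% lower and 12.1% higher of all genes, and their median log2 difference was 0.02. TMEM97, a sterol-responsive membrane protein, had 2160.1 in RD-treated cells and 12592 in control cells (5.83-fold lower), and the smallest log2 difference of its 4 probe sets was -2.11. LBR and CYB5R3 were picked with their values in view. LBR, which has the same reductase activity as TM7SF2, had 1132.6 for RD and 2805.7 for control (2.48-fold lower). CYB5R3, which passes electrons to sterol and fatty acid desaturases, had 3277.4 for RD and 6811.7 for control (2.08-fold lower). Its other probe set, with 1288.7 for RD and 2134.6 for control, did not reach 2-fold. LIPA, the acid lipase that frees cholesterol from its esters, had 2564.4 in RD-treated cells against 8139.5 in control cells (3.17-fold lower). NPC2, which binds the freed cholesterol, was 2.41-fold lower, and its partner NPC1 was at 4971.5 for RD and 4660.9 for control. OSBP, a sterol carrier of the Golgi apparatus, was the one higher gene of this list, with 3504.1 for RD and 1579.1 for control (2.22-fold higher), and VLDLR, a lipoprotein receptor, came next with a log2 difference of 0.55. As drawn up, the list of sterol uptake, storage and transport held 5 lower and 1 higher of 13 genes. The 5 include LBR and CYB5R3, which by the roles given above are not genes of uptake, storage or transport.

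Genes listed for SREBP cleavage and turnover showed no call in either direction. None of 8 reached 2-fold, beside 13.3% lower and 12.1% higher of all genes, and the list is short. The median log2 difference was -0.40. The Golgi proteases MBTPS1 and MBTPS2 had log2 differences of -0.42 and -0.69. ERLIN2, an endoplasmic reticulum protein that limits SREBP activation, was at the low end with -0.80 and RNF139, a ubiquitin ligase, at the high end with 0.18, followed by SPRING1, a cofactor of SREBP cleavage, with 0.10.

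The branches that leave farnesyl diphosphate were mixed in direction. Of 11 genes, 2 were lower and 2 were higher, beside 13.3% lower and 12.1% higher of all genes, and the median log2 difference was 0.45. PDSS1, a subunit of the synthase of the ubiquinone side chain, had 277.7 for RD and 770.1 for control (2.77-fold lower), and ICMT, which methylates prenylated proteins, was 2.02-fold lower. FNTB, a subunit of protein farnesyltransferase, had 258.7 for RD and 91.3 for control (2.83-fold higher), and NUS1, a subunit of the enzyme that makes dolichol precursors, had 3031 for RD and 1412.8 for control (2.15-fold higher). Whether branches and trunk differ was not tested.

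Around the fatty acid arm, the supply of citrate and NADPH was mixed. SLC25A1, the carrier that exports citrate from mitochondria to ACLY, had 439 in RD-treated cells against 1557.5 in control cells (3.55-fold lower). ME3, the mitochondrial malic enzyme that uses NADP, was 3.32-fold lower, with 554.9 for RD and 1842.9 for control, whereas the cytosolic ME1 had a ratio of 1.63. IDH1, a cytosolic source of NADPH, was at 20369.9 for RD and 12043.4 for control, a ratio of 1.69. MID1IP1, a protein that activates acetyl-CoA carboxylase, was 2.04-fold higher. The 10 genes held 2 lower and 1 higher, beside 13.3% lower and 12.1% higher of all genes, and their median log2 difference was 0.08. Of 13 genes of elongation and activation, 2 were lower and none was higher, beside the same shares of all genes, with a median of -0.63. SCD5, the second stearoyl-CoA desaturase, was 2.79-fold lower by its brightest probe set (824.4 for RD and 2303.2 for control), while its dimmer ones had log2 differences of -0.14 and -0.07. ACSL5, an acyl-CoA synthetase, was counted as lower by its deposited signals but was only bounded at 1.10-fold, with 8.8 for RD and 73.3 for control. At the high end ELOVL7 and ELOVL4, elongases of long chains, had log2 differences of 0.89 and 0.71.

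**Figure D4:**
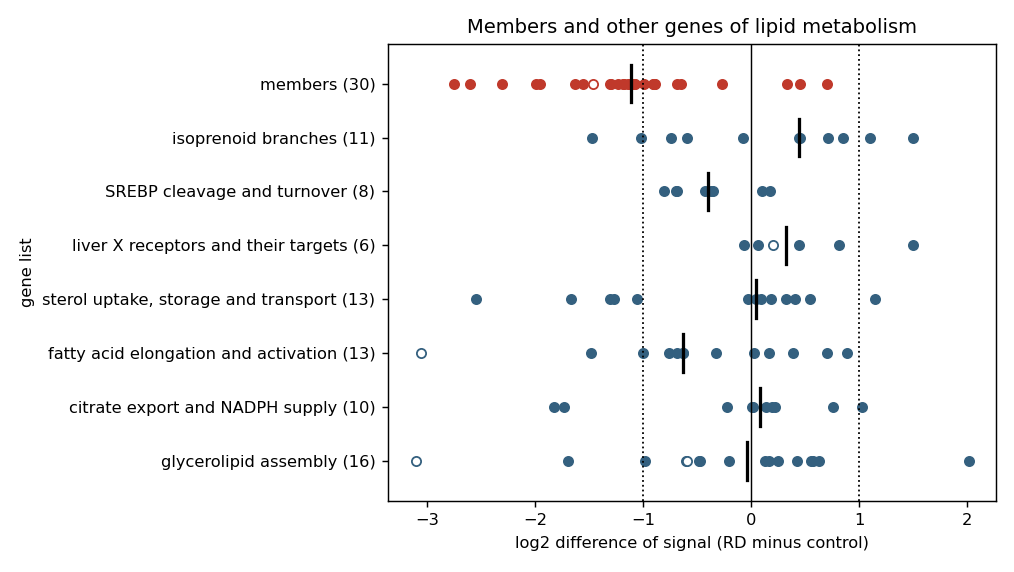
Difference in log2 signal (RD minus control, horizontal) of the members (red) and of other genes of lipid metabolism by list (blue), with the number of genes at or above the floor in brackets. The bar in each list is its median and dotted lines mark 2-fold. An open circle stands for a gene under the floor on 1 array, plotted by its deposited signals. The members' median of -1.11 lies left of the medians of the other lists, which run from -0.63 to 0.45.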

How the data were processed

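Total RNA from PC-3 cells was hybridised as biotin-labelled cRNA to 1 array per condition. The authors deposited linear intensities, named MAS5 signals in the submitters' processing notes. Neither the version of MAS5 nor its scaling target is given in the sources used here. MAS5 subtracts mismatch signals, so ratios of dim probe sets are noisy. Log2 differences (RD minus control) were computed from the deposited signals with no offset and no further scaling. Of 54613 probe sets, 41091 were paired with 1 gene, 1801 with several and 11721 with none in the platform annotation, and only the first kind was used. The symbols of all 30 measured members were unchanged in the RefSeq table of GRCh38.p14. Brightness was ranked by the mean log2 signal of both arrays. Genes called lower or higher across all genes rest on the rule of size alone, and no p-value was computed.

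The members, the other gene lists and the markers were chosen with earlier results of these data known. The named genes were all members, and for the other lists up to 2 genes at each end. LBR, CYB5R3, NPC2, NPC1, MBTPS1 and ABCA1 fall outside that rule and were picked with their values in view. The alternatives were centring, quantile normalization, 17.1 (the 25th percentile) added to each signal, the median over probe sets, probe sets without shared-sequence suffixes alone, a floor of 377.4 or none, raising signals to the floor, and thresholds of 1.5-fold and 3-fold. The scripts were tested on simulated data with known shifts. The tools were pandas 2.3.3 and numpy 2.4.6 under Python 3.11.15, with matplotlib 3.10.9 for plots. Some genes are not reported here.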

Additional observations from a re-analysis of the deposited data

How the results depend on the processing

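Every member kept its sign under each alternative in which it could be measured, and the median over all members stayed between -1.16 and -1.08. An added offset, a changed floor and raising signals to the floor cannot reverse the sign of a given probe set. Centring moved STARD4, the member closest to 0, only from -0.27 to -0.29. The count of 19 lower members changed by more than 1.5 times in 2 settings. It was 10 of 19 measured members when probe sets marked for shared sequence were left out, where fewer genes had a probe set, and 6 at a threshold of 3-fold. The count of higher members, 0 otherwise, was 1 at a threshold of 1.5-fold, which is ME1, and 26 members were lower there. MVK passed 2-fold after centring on the median and after quantile normalization. With the median over the probe sets of each gene, MVK, DHCR7 and SCD passed 2-fold and IDI1 did not, at -0.65, and by its only probe set without a shared-sequence mark IDI1 was at -0.01. The medians of the arms stayed between -1.34 and -1.06 for the mevalonate steps, -1.14 and -1.07 for the squalene to cholesterol steps, -1.40 and -1.08 for the fatty acid genes, and -0.68 and -0.61 for the regulators. No paired analysis was possible because each condition had 1 array. The number of arrays limits what can be said, since a difference between the 2 cultures cannot be told apart from the treatment.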

Other observations

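Genes of glycerolipid assembly, which esterify fatty acids into phospholipids and triglycerides, were mixed. Of 16 at or above the floor, 2 were lower and 1 was higher in RD-treated cells, with a median log2 difference of -0.04. These counts stand beside 13.3% lower and 12.1% higher of all genes. PNPLA3, a lipase of lipid droplets known as a target of SREBP1 in liver, was at least 4.47-fold lower, with signals of 34.7 for RD and 299.1 for control, and its other probe set read 16.8 for RD and 188.4 for control. PLIN3, a lipid droplet coat protein, had 1370.5 for RD and 4450.4 for control (3.25-fold lower). GPAT3, an acyltransferase at the start of triglyceride assembly, was 4.05-fold higher, with 1849.6 for RD and 456.8 for control, by a single probe set. DGAT1, which makes triglycerides, had a log2 difference of 0.63.

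Liver X receptors respond to oxysterols and drive sterol export. Of 6 genes of this list at or above the floor, 5 had a higher signal in RD-treated cells. The same held for 6390 of the 12818 genes at or above the floor. Among the 5, ABCG4 was dim, with 74.9 for RD and 65.2, under the floor, for control. The median log2 difference of the list was 0.32. LPCAT3 alone passed 2-fold, beside 13.3% lower and 12.1% higher of all genes. LPCAT3, a phospholipid acyltransferase, had 660.8 for RD and 233.9 for control by its brightest probe set (2.83-fold higher) but 100.6 for RD and 543.9 for control by its other one, so its direction depends on the probe set. MYLIP, a ubiquitin ligase for lipoprotein receptors, was at 279.5 for RD and 158.7 for control, and all 5 of its probe sets at or above the floor were above 0. ABCA1, the cholesterol exporter, was at 376.3 for RD and 277.2 for control. NR1H3, which encodes LXR alpha, was at the low end with 457.2 for RD and 479.2 for control, and SMPDL3A, a secreted phosphodiesterase, had a log2 difference of 0.06.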
